A study of Mus musculus with 6 samples.

Results

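Triglyceride synthesis and remodelling enzymes were examined in the livers of mice labelled as controls or as lacking hepatocyte ferroportin. The 9 genes, Gpam, Agpat2, Agpat3, Lpin1, Lpin2, Dgat1, Dgat2, Mogat1 and Pnpla3, were chosen by name from the 45777 genes of the deposited table. All 9 were listed, and all 9 were among the 17274 genes with no more than 1 library at 0 reads, which were the genes tested. RNA-seq was performed on whole liver from 3 littermate controls (LT, Fpn flox/flox) and 3 hepatocyte-specific Fpn-knockout mice (Fpn-LKO, Alb-Cre; Fpn flox/flox), where Fpn is the iron exporter gene Slc40a1 and Cre is driven by the albumin promoter. All 6 animals were male, of strain C57BL/6, carried the floxed allele, received a high-fat diet and belonged to a single labelled batch, so that the genotypes differed by the Cre transgene. No library from the normal diet was analysed here, and no age is given in the labels.

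Liver builds most of its triglyceride by the glycerol 3-phosphate route. Glycerol 3-phosphate acyltransferase adds the first fatty acyl chain, an acylglycerol phosphate acyltransferase adds the second, a lipin removes the phosphate to give diacylglycerol, and a diacylglycerol acyltransferase adds the last chain. A monoacylglycerol acyltransferase can feed the last step from monoacylglycerol instead, and PNPLA3 acts on triglyceride at the surface of lipid droplets.

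The question was whether the mRNA of these enzymes differed between the genotypes on a high-fat diet. None of the 9 passed the test over the whole table (edgeR quasi-likelihood test, Benjamini-Hochberg adjusted p of at least 0.982 for every member), against 0.0232% of all genes tested. At an unadjusted p under 0.05 there was 1 of 9, Mogat1, against 4.8% of all genes tested. In library-size-normalised read counts (CPM, with TMM scaling) the groups overlapped for all 9, while they did not overlap for 10.6% of all genes tested. The median log2 fold change (Fpn-LKO over LT) was -0.03 over the 9 members and -0.004 over all genes tested. With 3 mice per genotype, the 95% intervals still allowed a log2 difference of -0.28 for Dgat1 and of more than 1 in size for Lpin1, Mogat1 and Pnpla3.

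The libraries held 43086184 to 47778683 assigned reads. Slc40a1, the targeted gene, ranged from 126 to 180 CPM across the LT livers. It ranged from 143 to 176 CPM across those labelled Fpn-LKO, with a log2 fold change of 0.01 (edgeR quasi-likelihood test, adjusted p = 0.995). The gene-level count thus did not separate the genotypes, and a count per gene does not show whether the floxed exons were transcribed, so each difference below is one between libraries as labelled. The paper reports loss of ferroportin in Fpn-LKO hepatocytes, from primary hepatocytes and from immunostaining. It also names macrophages as cells that export iron by ferroportin, and their part in this whole-liver count was not tested. Hepatocyte markers (6 of 6 detected) summed to 68676 to 83206 CPM in LT against 68856 to 77992 CPM in Fpn-LKO. Of 6 adipocyte markers, Adipoq, Lep, Retn and Plin1 had 0 reads in every library. The sum was thus that of Adrb3 and Cfd, at 1.49 to 5.13 CPM in LT against 0.685 to 3.23 CPM in Fpn-LKO. Adrb3 was at 1.08, 5.13 and 4.69 CPM in LT against 1.22, 0.578 and 0.733 CPM in Fpn-LKO. Cfd was at 0.402, 0 and 0.0967 CPM in LT against 2.01, 0.107 and 0.647 CPM in Fpn-LKO. Macrophage markers (6 genes) summed to 195 to 257 CPM in LT against 163 to 364 CPM in Fpn-LKO. Stellate cell markers (5 genes) summed to 239 to 292 CPM and 291 to 332 CPM, endothelial markers (4 genes) to 199 to 250 CPM and 189 to 206 CPM, and cholangiocyte markers (4 genes) to 0.884 to 1.69 CPM and 0.839 to 2.23 CPM, in LT and Fpn-LKO. The small-intestine list (4 genes), which contains Mttp and Apoa4 that liver also expresses, lay at 2056 to 4146 CPM and 2859 to 4385 CPM, and the erythroid list (3 genes) at 271 to 649 CPM and 361 to 890 CPM. For none of the 8 lists was the exact two-sided permutation p of the summed level under 0.2, where the smallest possible p is 0.1. This exact p was 0.2 for the adipocyte, stellate cell, endothelial and erythroid lists. In bulk liver, fewer cells of a type and less RNA per cell cannot be told apart. Short RNAs without a poly(A) tail (Rn7s1, Rn7s2, Rn7sk, Rpph1 and Rmrp) took 3.29% to 10.2% of the counts of a library, and their part in the members' values was not tested.

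RefSeq start-site windows were available for 7 of the 9 genes, each running from 250 bases before to 50 bases after an annotated start (build GRCm38.p6). Dgat2, the most abundant member, and Dgat1, the steadiest, had none. From the 7 genes with a window, 4 are printed that lay at or near the ends of the level and spread described below. Mogat1 (chr1:78510810-78511109, + strand) and Lpin1 (chr12:16610917-16611216, - strand) varied most between mice, Agpat2 (chr2:26604368-26604667, - strand) varied little at a high level, and Pnpla3 (chr15:84167566-84167865, + strand) had the lowest level. The sequences run 5′ to 3′ along the strand of the gene, with CpG dinucleotides in capitals.
Mogat1: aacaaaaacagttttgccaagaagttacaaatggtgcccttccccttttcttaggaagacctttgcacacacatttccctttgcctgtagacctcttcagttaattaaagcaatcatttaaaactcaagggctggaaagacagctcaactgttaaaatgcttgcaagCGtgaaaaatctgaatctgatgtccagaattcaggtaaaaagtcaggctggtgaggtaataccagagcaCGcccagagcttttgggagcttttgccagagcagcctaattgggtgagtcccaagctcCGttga
Lpin1: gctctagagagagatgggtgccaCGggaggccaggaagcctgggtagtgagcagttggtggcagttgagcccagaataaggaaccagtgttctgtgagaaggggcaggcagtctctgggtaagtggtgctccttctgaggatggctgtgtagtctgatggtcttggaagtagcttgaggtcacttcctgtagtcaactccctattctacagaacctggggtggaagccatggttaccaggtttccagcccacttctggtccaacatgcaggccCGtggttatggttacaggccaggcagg
Agpat2: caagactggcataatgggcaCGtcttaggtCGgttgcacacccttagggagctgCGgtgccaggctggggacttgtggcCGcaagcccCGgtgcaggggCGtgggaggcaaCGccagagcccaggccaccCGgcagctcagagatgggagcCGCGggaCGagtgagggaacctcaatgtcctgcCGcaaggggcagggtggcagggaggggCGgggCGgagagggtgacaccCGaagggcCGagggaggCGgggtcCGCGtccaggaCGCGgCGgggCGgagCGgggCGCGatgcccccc
Pnpla3: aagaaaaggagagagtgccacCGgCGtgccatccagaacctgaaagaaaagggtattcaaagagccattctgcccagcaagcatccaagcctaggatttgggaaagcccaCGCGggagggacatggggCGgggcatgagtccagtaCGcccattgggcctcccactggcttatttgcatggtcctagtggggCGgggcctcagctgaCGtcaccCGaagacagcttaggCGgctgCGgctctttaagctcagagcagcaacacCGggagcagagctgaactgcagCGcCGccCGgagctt
The Mogat1 window held 3 CpGs and the Lpin1 window 2, and 31.4% and 23.3% of all 32851 windows held no more. The Lpin1 window lies at a start inside the annotated gene. The Agpat2 window held 26 CpGs, where 84.5% of windows held no more, and the Pnpla3 window held 15, where 67% held no more. Of the windows not printed, the 3 for Lpin2 held 37, 54 and 4 CpGs, the 2 for Gpam 30 and 9, and the Agpat3 window 15. Whether the CpG count goes with level or spread was not tested. Short motifs were searched on both strands. The E-box was searched as CACGTG and occurs in 7.15% of all windows. The sterol regulatory element was searched as TCACNCCAC and occurs in 1.24%. The forkhead motif was searched as GTAAACA and occurs in 3.65%. The cAMP response element was searched as TGACGTCA and occurs in 1.79%. The GC box was searched as GGGCGG and occurs in 35.7%. The TATA box was searched as TATAAA and occurs in 13.6%. None of the 6 motifs was found in the Mogat1 or Lpin1 window. The Agpat2 window contained 3 GC boxes, starting at -42, -37 and 25 relative to the start, the first pair overlapping. The Pnpla3 window contained 1 cAMP response element at -46 and 3 GC boxes at -125, -61 and 38. Of the windows not printed, 1 of 3 for Lpin2 held an E-box at -9 with GC boxes at -24 and 7, another a GC box at -79 and the third a forkhead match at -138, 1 of 2 for Gpam held a GC box at -16, and the Agpat3 window held none. These are matches of letters only.

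Gpam (chr19:55067635-55127319, GRCm38, - strand) encodes the mitochondrial glycerol 3-phosphate acyltransferase of the first acylation step. It was measured at 351, 349 and 227 CPM in LT 1 to 3 and at 319, 298 and 255 CPM in Fpn-LKO 1 to 3. All Fpn-LKO values fell within the LT range, whose low end was set by LT 3. The log2 fold change was -0.09 ± 0.19 (SE, n = 3 per group, 95% interval -0.54 to 0.36, edgeR quasi-likelihood test, adjusted p = 0.995).

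Agpat2 (chr2:26593057-26604417, - strand), the acyltransferase whose loss in humans causes a congenital lipodystrophy, was present at 130, 145 and 145 CPM in LT against 152, 162 and 142 CPM in Fpn-LKO. Its log2 fold change was 0.12 ± 0.11 (SE, n = 3 per group, 95% interval -0.14 to 0.38, edgeR quasi-likelihood test, adjusted p = 0.987). The groups overlapped only through Fpn-LKO 3, which lay just under LT 2 and LT 3. On the deposited TPM scale, which divides reads by transcript length, Agpat2 was the single member whose groups did not overlap, with 117, 119 and 110 TPM in LT and 124, 157 and 124 TPM in Fpn-LKO. In TPM the groups did not overlap for 9.15% of all genes tested, so 1 of 9 members is near that share. The short RNAs without a poly(A) tail took 33.9%, 32.2% and 34.96% of all TPM in LT and 41.1%, 16.1% and 20.2% in Fpn-LKO, so a TPM difference between libraries also carries that difference in composition. Agpat2 shares 64 exonic bases with Egfl7 on the opposite strand, which averaged 20.2 CPM, and whether the counting used strand is not given in the sources used here.

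Agpat3 (chr10:78269174-78352497, - strand), a family member that also makes phospholipids, was measured at 150, 169 and 122 CPM in LT against 141, 139 and 122.8 CPM in Fpn-LKO. The Fpn-LKO values lay inside the LT range. The log2 fold change was -0.13 ± 0.15 (SE, n = 3 per group, 95% interval -0.47 to 0.21, edgeR quasi-likelihood test, adjusted p = 0.991).

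The lipins were the members of high abundance that differed most from mouse to mouse. Lpin1 (chr12:16535669-16653903, - strand) encodes a phosphatidate phosphatase that also acts as a transcriptional coactivator and is induced by fasting. Its values were 328, 327 and 191 CPM in LT against 131, 385 and 150 CPM in Fpn-LKO. Fpn-LKO 2 was the highest of all 6 libraries while Fpn-LKO 1 and Fpn-LKO 3 were the lowest, so the groups overlapped through that library. The log2 fold change was -0.34 ± 0.42 (SE, n = 3 per group, 95% interval -1.33 to 0.64, edgeR quasi-likelihood test, adjusted p = 0.995). Without Fpn-LKO 2 it was -1.0 (edgeR quasi-likelihood test, unadjusted p = 0.0085, adjusted p = 0.970), and without Fpn-LKO 1 it was -0.08. The pooled standard deviation within groups was 0.67 log2 units, and 96.8% of all genes tested had no larger one.

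Lpin2 (chr17:71183532-71249818, + strand), the lipin best known from liver, lay at 867, 536 and 355 CPM in LT against at 566, 577 and 581 CPM in Fpn-LKO. The LT mice spanned a 2.44-fold range that enclosed the 3 closely spaced Fpn-LKO values. The log2 fold change was -0.03 ± 0.30 (SE, n = 3 per group, 95% interval -0.72 to 0.66, edgeR quasi-likelihood test, adjusted p = 0.995), and it was 0.37 without LT 1. The ratio of Lpin2 to Lpin1 in TPM was 1.79 ± 0.483 in LT and 2.76 ± 1.22 in Fpn-LKO (SD, n = 3, exact two-sided permutation p = 0.4). Fpn-LKO 1 and Fpn-LKO 3 had ratios of 3.54 and 3.39, above the highest LT ratio of 2.34, and Fpn-LKO 2 had the lowest of all libraries at 1.35.

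The final acylation enzymes differed little on average. Dgat1 (chr15:76502012-76512021, - strand), the enzyme that also re-esterifies fatty acids taken up by cells, was the steadiest member, at 19.5, 18.1 and 18.7 CPM in LT against 19.6, 17.3 and 18.4 CPM in Fpn-LKO. Its highest library exceeded its lowest by 1.13-fold, and the log2 fold change was -0.02 ± 0.11 (SE, n = 3 per group, 95% interval -0.28 to 0.23, edgeR quasi-likelihood test, adjusted p = 0.995). Dgat2 (chr7:99153663-99182713, - strand), the enzyme linked to newly made fatty acids, was measured at 392, 427 and 504 CPM in LT against 516, 525 and 351 CPM in Fpn-LKO. The lowest and both of the highest Dgat2 values came from Fpn-LKO mice, so the Fpn-LKO range enclosed that of LT. The Dgat2 log2 fold change was 0.07 ± 0.19 (SE, n = 3 per group, 95% interval -0.38 to 0.52, edgeR quasi-likelihood test, adjusted p = 0.995).

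**Figure D1:**
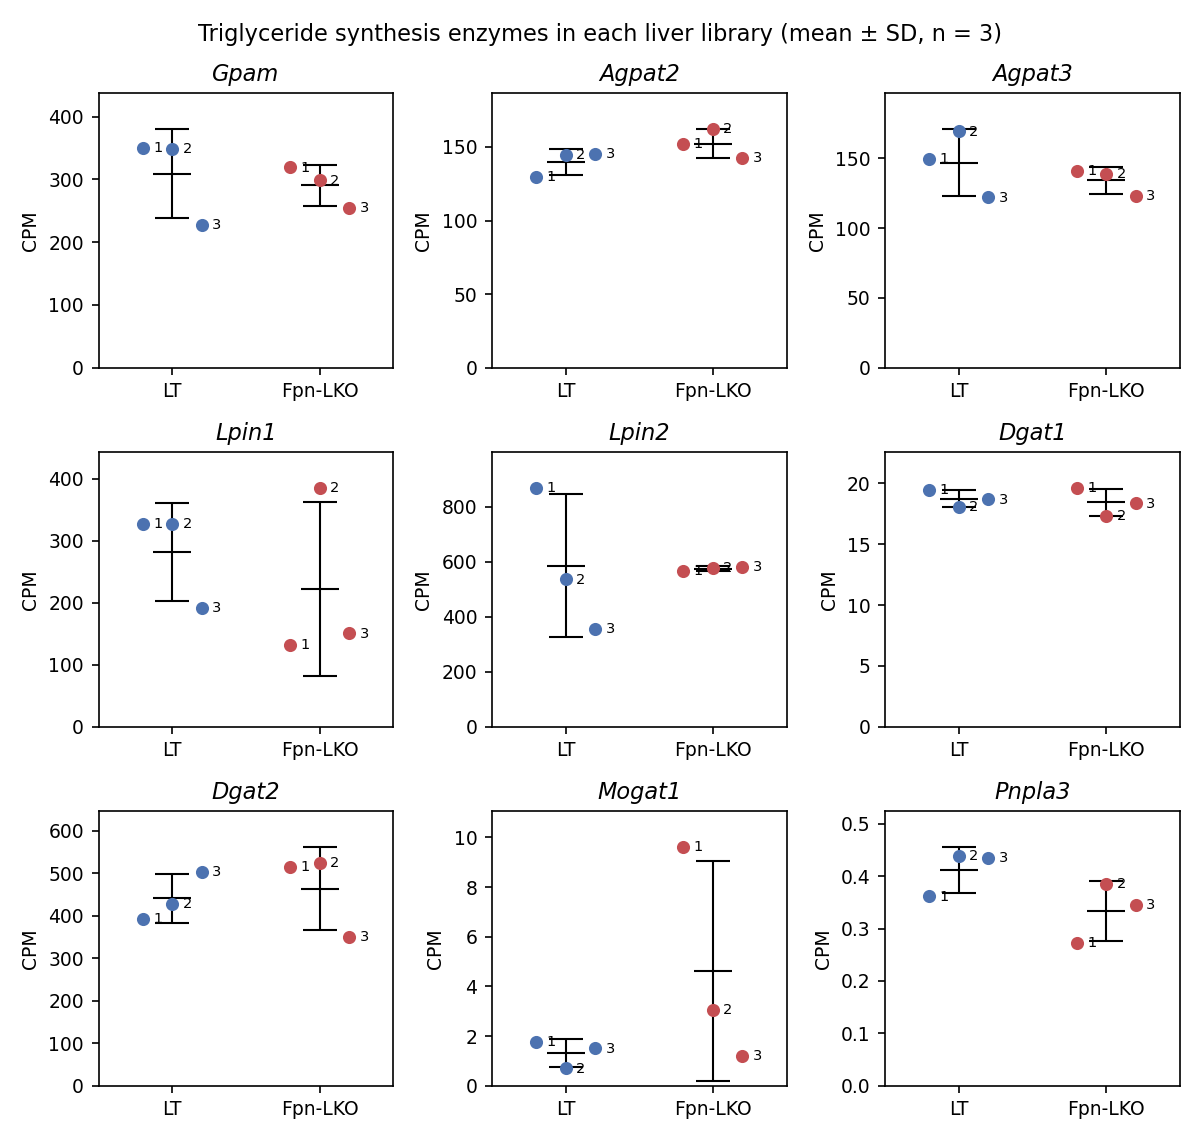
CPM (normalised read count, linear y axes) of the 9 genes in each library, with the 3 LT mice in blue and the 3 Fpn-LKO mice in red, numbered by replicate. Black bars give the mean ± SD of each genotype. The groups overlap in every panel, Lpin1 is split within Fpn-LKO between 385 CPM and values of at most 150 CPM, and Mogat1 is carried by Fpn-LKO 1 at 9.60 CPM.

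Mogat1 (chr1:78511060-78606964, + strand) encodes a monoacylglycerol acyltransferase that is low in lean liver and has been linked to fatty liver in mice. It had 88, 30 and 62 reads in LT and 458, 143 and 55 reads in Fpn-LKO, or 1.77, 0.693 and 1.498 CPM against 9.60, 3.06 and 1.19 CPM. Fpn-LKO 1 and Fpn-LKO 2 exceeded every LT mouse, whereas Fpn-LKO 3 lay inside the LT range. The log2 fold change was 1.80 ± 0.73 (SE, n = 3 per group, 95% interval 0.09 to 3.51, edgeR quasi-likelihood test, unadjusted p = 0.0415, adjusted p = 0.982), and Mogat1 therefore did not pass over the whole table. Over the alternatives its adjusted p ranged from 0.341 (DESeq2) to 1.00. Without Fpn-LKO 1 the log2 fold change was 0.68 (edgeR quasi-likelihood test, unadjusted p = 0.259), and without Fpn-LKO 3 it was 2.26 (unadjusted p = 0.00646). The exact two-sided permutation p of the CPM means was 0.3, and the highest library exceeded the lowest by 13.9-fold. Fpn-LKO 1 was also the library with the largest share of counts in short RNAs without a poly(A) tail (10.2%), and the part of this in the Mogat1 value was not tested. The gene shares 200 exonic bases with BC035947 on the opposite strand, of which 191 are an identical match, so reads from that stretch are uncertain.

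Pnpla3 (chr15:84167776-84189521, + strand), whose human counterpart carries a common risk allele for steatosis, was barely detected. It had 18, 19 and 18 reads in LT and 13, 18 and 16 reads in Fpn-LKO, equal to 0.362 to 0.439 CPM and 0.273 to 0.386 CPM. The exact Poisson 95% interval of the lowest library ran from 6.92 to 22.2 reads and that of the highest from 11.4 to 29.7 reads, which cover counting error only. All 6 intervals thus overlapped. The log2 fold change was -0.30 ± 0.39 (SE, n = 3 per group, 95% interval -1.20 to 0.60, edgeR quasi-likelihood test, adjusted p = 0.995). A transcript annotated on the same strand, Gm49513, shares 105 of the exonic bases of Pnpla3, and reads from that stretch are uncertain.

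**Figure D2:**
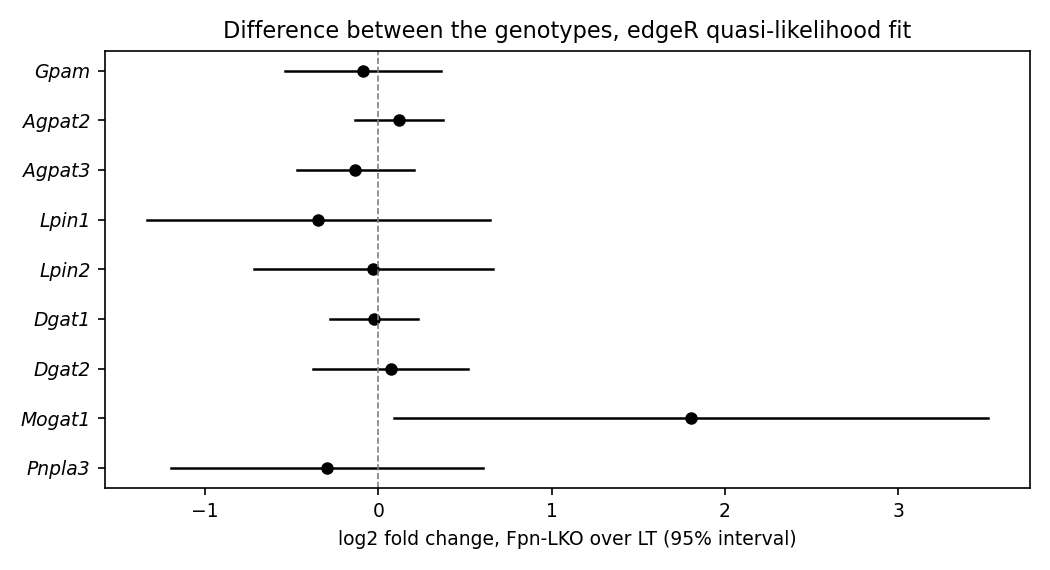
Log2 fold change of each gene, Fpn-LKO over LT (x axis), with its 95% interval from the edgeR quasi-likelihood fit on 3 libraries per genotype. Points mark the estimate, the dashed line marks no difference, and the Mogat1 interval, 0.09 to 3.51, is the only one that leaves out 0.

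On the per-length TPM scale the members covered a wide range of levels. The mean over the 6 libraries was 263 TPM for Dgat2, 125 TPM for Agpat2, 122 TPM for Lpin2, 64.2 TPM for Gpam, 60.9 TPM for Lpin1, 33.9 TPM for Agpat3, 12.5 TPM for Dgat1, 3.08 TPM for Mogat1 and 0.098 TPM for Pnpla3. The single libraries kept part of that order. Agpat2 lay below Dgat2, Gpam below Lpin2, and Dgat1, Mogat1 and Pnpla3 each below the member above them in 6 of 6 libraries. Lpin2 was below Agpat2 in 5 of 6, Agpat3 was below Lpin1 in 5 of 6, and Lpin1 was below Gpam in 3 of 6, so Gpam and Lpin1 did not differ in level beyond their spread. The summed TPM of the 9 genes was 661 ± 112 in LT and 708 ± 150 in Fpn-LKO (SD, n = 3, exact two-sided permutation p = 0.6).

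Spread between mice of 1 genotype was also unequal. The pooled standard deviation within groups, on log2(CPM + 0.5), was 0.07 for Dgat1, 0.09 for Agpat2, 0.19 for Agpat3, 0.27 for Dgat2, 0.28 for Gpam, 0.46 for Lpin2, 0.67 for Lpin1 and 0.98 for Mogat1. Pnpla3 is left out because all its CPM values lay below the offset of 0.5. The median over all genes tested was 0.22, and over the 6879 genes with a mean of at least 10 CPM it was 0.17. Mogat1 and Lpin1 lay near the upper end, with 98.8% and 96.8% of genes showing no larger spread, and Dgat1 near the lower end, with 5.02% showing no larger one.

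**Figure D3:**
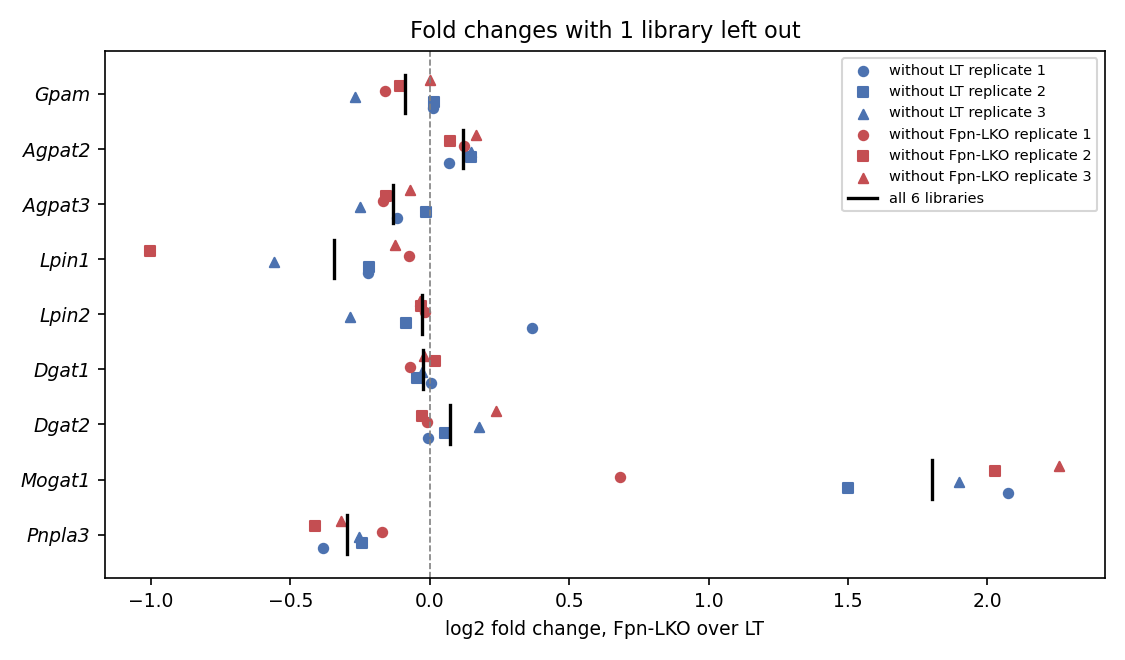
Log2 fold change, Fpn-LKO over LT (x axis), of each gene when 1 library was left out. Blue symbols leave out an LT mouse, red symbols an Fpn-LKO mouse, and the black line is the value with all 6. Lpin1 moves to -1.0 without Fpn-LKO 2 and Mogat1 to 0.68 without Fpn-LKO 1, while Agpat2 and Dgat1 stay within 0.17 of 0.

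The make-up of each activity was then compared, as the share of a gene in the summed TPM of all genes of its class. With 3 mice per genotype, no exact permutation p can fall under 0.1, and 16 shares were compared, for which the adjusted p was at least 0.533. In the first acylation step Gpam held 48.3 ± 6.94% in LT and 41.0 ± 1.97% in Fpn-LKO (SD, n = 3, exact two-sided permutation p = 0.2), and Gpat4, an endoplasmic reticulum enzyme, held 42.7 ± 5.37% and 48.5 ± 3.41% (exact p = 0.3). LT 2 had the highest Gpam share at 55.3% and Fpn-LKO 2 the lowest at 39.0%. Agpat2 provided 74.4 ± 2.25% and 77.3 ± 1.42% of AGPAT transcripts (exact p = 0.3), with Agpat3 at 21.7 ± 2.87% and 19.6 ± 1.28%. The minor form Agpat1 was separated between the groups, at 1.56 ± 0.424% in LT and 1.06 ± 0.081% in Fpn-LKO (exact p = 0.1). Lpin2 made up 62.7 ± 6.04% and 70.3 ± 11.5% of lipin transcripts (exact p = 0.4), with Lpin3 at 1.12 ± 0.565% and 0.854 ± 0.268%. Dgat2 made up 95.3 ± 0.680% and 95.5 ± 1.03% of DGAT transcripts (exact p = 0.8), and its ratio to Dgat1 was 20.4 ± 2.99 and 21.8 ± 4.78. Mogat1 made up 88.7 ± 2.74% of monoacylglycerol acyltransferase transcripts in LT and 98.3 ± 2.12% in Fpn-LKO (exact p = 0.1), without overlap. That separation rested on few reads of Mogat2, with 12, 7 and 11 reads in LT and 0, 2 and 4 reads in Fpn-LKO.

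**Figure D4:**
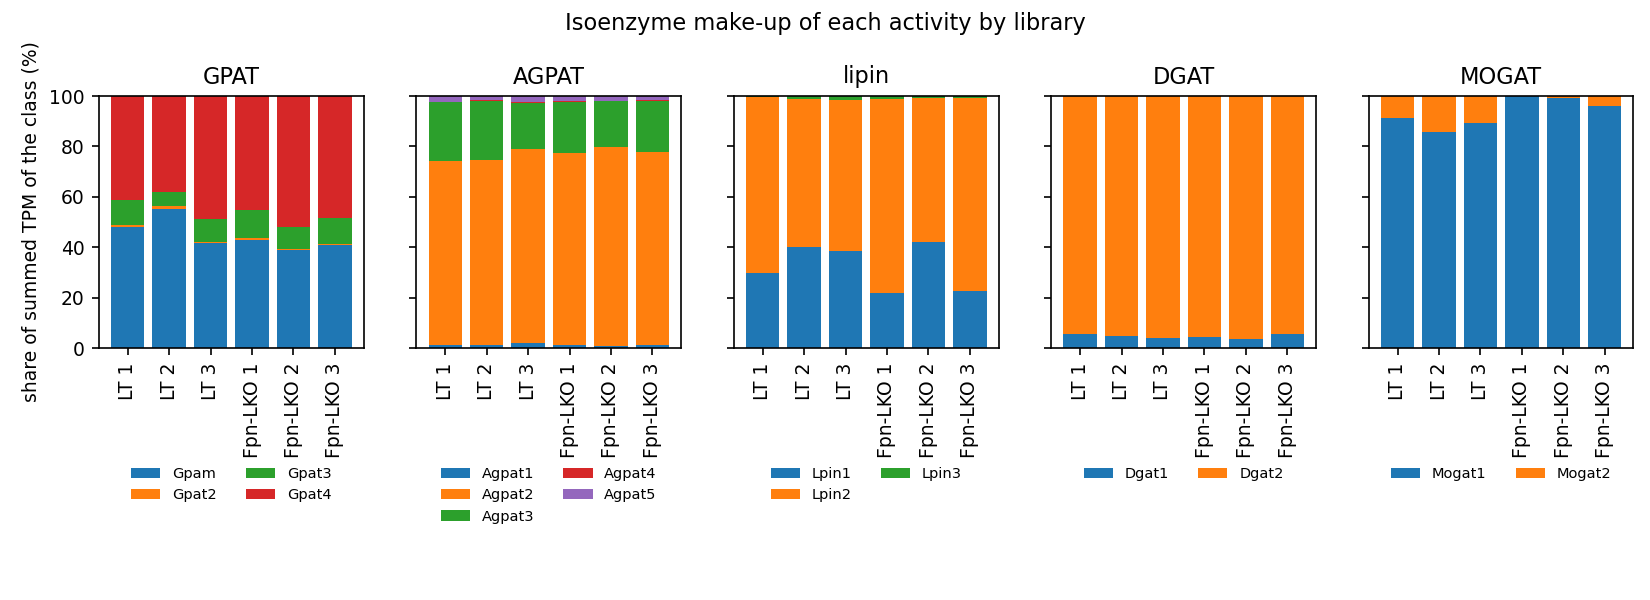
Share of each gene in the summed TPM of its activity class (y axis, percent) in each of the 6 libraries (x axis), for the acyltransferases of the first (GPAT) and second (AGPAT) step, the lipins, and the diacylglycerol (DGAT) and monoacylglycerol (MOGAT) acyltransferases. Dgat2 and Mogat1 fill most of their bars, the Lpin1 share is 42.2% in Fpn-LKO 2 and 21.8% and 22.6% in the other Fpn-LKO mice, and Mogat2 holds 8.81% to 14.2% in LT and 0% to 4.05% in Fpn-LKO.

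The genes around these enzymes were described from 8 lists of 53 symbols, of which 52 were in the table and 51 were tested (Gyk is a second name, listed as Gk, and Acsl6 did not pass the filter). None passed over the whole table in the edgeR quasi-likelihood test. At an unadjusted p under 0.05 there were 2 higher in Fpn-LKO, where 2.62% of all genes tested were higher, and 3 lower, where 2.19% were lower. The groups did not overlap in CPM for 6 of 51, a share near the 10.6% of all genes tested. The median log2 fold change was -0.08, with 20 genes above 0 and 31 below, where all genes tested had a median of -0.004 with 8529 above 0 and 8745 below.

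Among the acyl-CoA synthetases that activate fatty acids (4 tested), Acsl3, known from lipid droplet formation, averaged 16.7 ± 4.30 CPM in LT against 10.02 ± 0.662 CPM in Fpn-LKO (SD, n = 3) without overlap. Its log2 fold change was -0.74 (edgeR quasi-likelihood test, unadjusted p = 0.00672, adjusted p = 0.863). The most abundant members, Acsl1, Acsl5 and Acsl4, had log2 fold changes of -0.09, -0.26 and 0.04. Among the 4 genes of glycerol 3-phosphate metabolism, log2 fold changes were -0.17 for the glycerol channel Aqp9 and -0.12 for the glycerol kinase Gk. Those of Gpd1 and Gpd2 were -0.25 and -0.04.

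Of the 8 other acyltransferases and cofactors, none reached an unadjusted p under 0.05. Gpat4 averaged 186 ± 25.7 CPM in LT against 233 ± 30.5 CPM in Fpn-LKO (log2 fold change 0.33, edgeR quasi-likelihood test, unadjusted p = 0.0676), Gpat3 had a log2 fold change of 0.42 and Abhd5, a lipase cofactor, one of 0.25. Agpat1 was at 4.44 ± 1.21 CPM and 3.27 ± 0.293 CPM without overlap (log2 fold change -0.44, unadjusted p = 0.113). None of the 6 other phosphatidate phosphatases and lipin controls reached it either, and the most abundant, Plpp3, Plpp1 and Plpp2, had log2 fold changes of -0.26, -0.08 and -0.15. Mogat2 had a log2 fold change of -2.31 (unadjusted p = 0.0211, adjusted p = 0.982) on the reads given above.

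In the phospholipid branch, which draws on the same intermediates, 2 of 8 genes had an unadjusted p under 0.05, in opposite directions, where 4.8% of all genes tested had one. Pcyt2, of phosphatidylethanolamine synthesis, averaged 216 ± 23.4 CPM in LT against 175 ± 9.06 CPM in Fpn-LKO (log2 fold change -0.31, edgeR quasi-likelihood test, unadjusted p = 0.038, adjusted p = 0.982). Cds2, which turns phosphatidate into CDP-diacylglycerol, averaged 47.0 ± 1.203 CPM and 59.5 ± 9.48 CPM (log2 fold change 0.34, unadjusted p = 0.0386, adjusted p = 0.982). Both were without overlap between the groups, as were 10.6% of all genes tested. Pemt and Chpt1 had log2 fold changes of 0.08 and 0.17.

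None of the 12 genes of triglyceride hydrolysis and transfer reached an unadjusted p under 0.05. The liver carboxylesterases Ces3a, Ces1d and Ces3b had log2 fold changes of 0.03, -0.30 and -0.08. Of 8 transcriptional regulators, Nr1h3, the liver X receptor α gene, averaged 72.9 ± 3.22 CPM in LT against 85.9 ± 0.823 CPM in Fpn-LKO (log2 fold change 0.24, edgeR quasi-likelihood test, unadjusted p = 0.039, adjusted p = 0.982) without overlap. The other abundant regulators, Nr1h4 and Ppara, had log2 fold changes of -0.07 and -0.05.

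**Figure D5:**
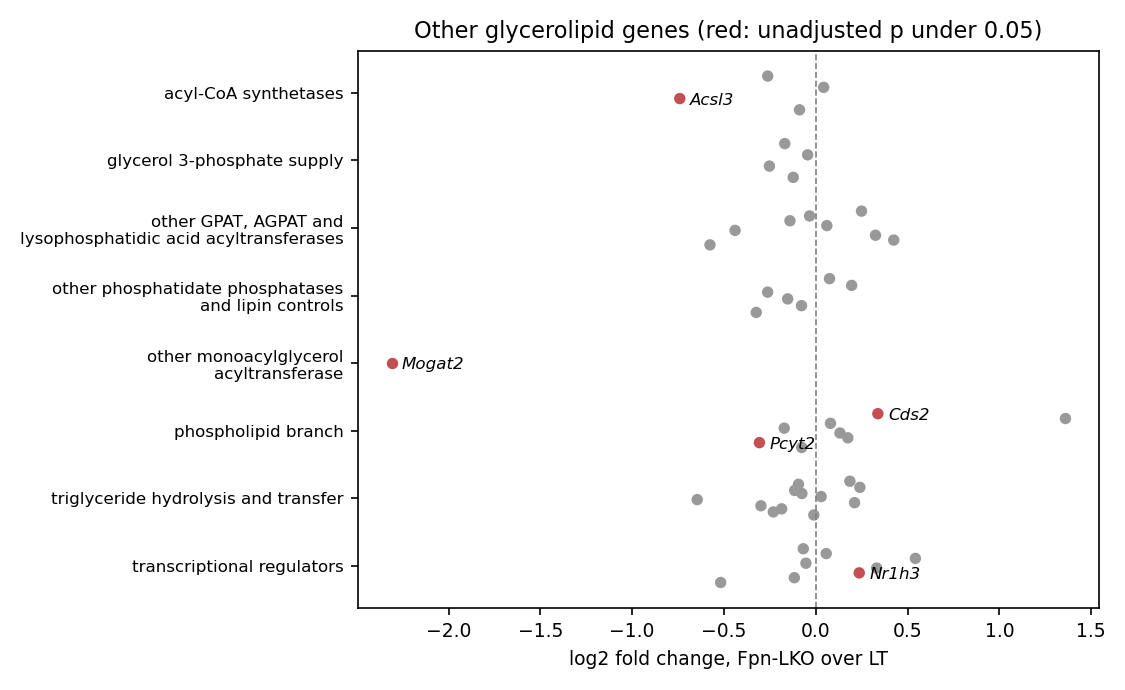
Log2 fold change, Fpn-LKO over LT (x axis), of 51 glycerolipid genes outside the 9 enzymes, 1 point per gene, grouped by list (y axis). Red points are the 5 genes with an unadjusted p under 0.05, at -2.31 for Mogat2, -0.74 for Acsl3, -0.31 for Pcyt2, 0.24 for Nr1h3 and 0.34 for Cds2, and none passed after adjustment over all genes.

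The genes most alike in pattern were listed for 3 members by Pearson's r of log2(CPM + 0.5) over the 6 libraries, as a description only. These libraries share diet and batch but differ in depth and in the share of short RNAs without a poly(A) tail. For Gpam they were Ppcdc (r = 0.989), Zfp551 (0.987) and Ago4 (0.987). For Mogat1 they were Kbtbd11 (0.997), Acat3 (0.990) and 1110032A03Rik (0.988). For Pnpla3 they were Gm12576 (0.997), Nucks1 (0.992) and Fam118a (0.989), at an expression level where Pnpla3 itself had at most 19 reads. They were the 3 highest among 12590 genes compared for Gpam and Mogat1 and 12591 for Pnpla3, with only 6 points.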

How the data were processed

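Total RNA from liver was sequenced. The labels name a stranded mRNA kit, whereas the study's methods describe ribosomal RNA removal from total RNA. Per the submitters' processing notes, bcl2fastq 2.20.0, FastQC 0.11.7, HISAT2 2.1.0, Bowtie2 2.3.4.1 and StringTie 2.1.3b were used with build mm10. The deposited table gave raw read counts per gene and, normalised by the authors for gene length and library, FPKM and TPM values, which were used as deposited.

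Counts were scaled by TMM and tested in edgeR 4.0.16 (quasi-likelihood test, R 4.3.3), 3 Fpn-LKO against 3 LT, after dropping any gene that more than 1 library listed at 0 reads. Benjamini-Hochberg adjustment covered all 17274 remaining genes with a threshold of 0.05. The common biological coefficient of variation was 0.275. The study's methods name the edgeR exact test, which was an alternative beside RLE scaling, DESeq2 1.42.0, 2 other filters, a replicate block, limma 3.58.1 on log2 TPM with a pseudocount of 1 or 0.1 where the mean reached 1 TPM, and leaving out each mouse. FPKM served to check the order of levels. Libraries of a group differed by far more than sampling noise. The edgeR p-values set the difference between the genotypes against the spread between mice, with the spread of each gene moderated by that of all genes tested. Single values were compared by exact two-sided permutation (SciPy 1.17.1), for which the smallest p is 0.1.

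The members and lists were chosen with earlier results of these data known. Named genes were the 9 members, Slc40a1, list genes with an unadjusted p under 0.05 or groups without overlap, up to 3 genes per list with the highest TPM, and for Gpam, Mogat1 and Pnpla3 the 3 genes most alike (mean of at least 1 CPM). Gpd2, Lpin3 and the overlapping genes were added after their values were seen. Gene positions came from GENCODE vM21 and RefSeq, and BLAST 2.17.0 was used to look for transcripts resembling a member (at least 90% identity over 100 bases).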

Additional observations from a re-analysis of the deposited data

How the results depend on the processing

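No member passed after adjustment under any alternative run, and Mogat1 kept a log2 fold change above 0 in all 14. The genes called over the whole table (4) became 72 with DESeq2, 63 with the exact test, 7 with limma on either TPM scale and 0 with the replicate block, and 0 to 6 with 1 mouse left out. Members at an unadjusted p under 0.05 (1) became 0 with the replicate block and with limma on either scale, and 0 to 2 with 1 mouse left out, where 2 came without Fpn-LKO 2. Pathway genes at that p (5) became 2 with the exact test, 3 with all genes of at least 1 read, 0 with limma on either scale, and 1 to 7 with 1 mouse left out, the 1 without Fpn-LKO 2 and 2 without LT 2. Members without overlap (0) became 1 in TPM (Agpat2), where 9.15% of all genes did not overlap, and 0 to 3 with 1 mouse left out, where 18.8% to 22.4% of all genes did not. The sign of a log2 fold change turned for members near 0. On log2(TPM + 1) and log2(TPM + 0.1) Gpam was 0.0259 and 0.0270, Agpat3 0.0222 and 0.0234, Lpin2 0.148 and 0.151, and Dgat1 0.0629 and 0.0679, where the median of all genes was 0.0826 and 0.0969. With 1 mouse left out, Gpam ran from -0.266 to 0.0138, Lpin2 from -0.286 to 0.368, Dgat1 from -0.0699 to 0.0180 and Dgat2 from -0.0267 to 0.239. The cause of these shifts was not tested. Lpin2 was 0.0677 with the replicate block. Deviations from the group means correlated between the genotypes at 0.249, 0.026 and 0.129 for the shared replicate numbers 1 to 3. For libraries of different numbers the correlations ran from -0.1925 to 0.0841. With 3 mice per genotype these values cannot decide whether the replicate numbers pair the mice. The order of members by level was the same in FPKM, and 7 of 9 kept their place without LT 3 or without Fpn-LKO 1. Pnpla3 could not be tested by limma because its mean was under 1 TPM, and at 13 to 19 reads per library its precision is limited by counting.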
